A study of Mus musculus with 2 samples.

Results

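DNA methylation near 140 genes of the immune system was compared between 2 layers of the embryonic mouse cortex. The genes were those whose symbols are built on the names of interleukins and their receptors (Il), chemokine ligands and receptors (Ccl, Ccr, Cxcl, Cxcr), Toll-like receptors (Tlr) and leukocyte surface antigens (Cd), on chromosomes 1 to 19 and leaving out Cd81. They were taken from the authors' peak annotation, which assigns a peak to every gene within 10 kb. In all, 638 of the 147297 peaks in the 4 deposited tables were assigned to them, and 140 of the 12685 autosomal genes in the tables. Genes of the same families without a listed peak are not among the 140, so the number says nothing of how many family members carry methylation. Among genes with a listed peak the symbols set the choice, and the size or direction of a peak did not enter it.

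The tissues were the ventricular and subventricular zone (V/SVZ), the layer that is rich in neuronal progenitors, and the cortical plate (CP), where neurons differentiate. Both were dissected by hand from ICR mice at embryonic day 16, with no treatment or mutation named, and how many embryos were pooled is not stated in the labels. Genomic DNA fragments carrying methylated CpG sites were captured with a methyl-CpG-binding domain and sequenced (MBD-seq), with 1 library per tissue. No difference between the tissues therefore has a replicate error or a p-value.

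Cytokines and chemokines are secreted signals that leukocytes use to recruit and activate each other, and their receptors and the Toll-like receptors start signalling through NF-kappaB and STAT factors. Cd symbols name surface molecules by which leukocytes are told apart. In the cortex before birth most of these genes belong to the small population of microglia and to blood and vessel cells, while a few, such as Il34, Cxcl12, Il6st and Cd47, are known to be expressed by neural cells. Methylation of CpG sites near a transcription start is known to go with silence, whereas methylation inside genes is common in expressed and silent genes alike.

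The label of the group holds only in part. A Cd symbol does not always name a leukocyte antigen: Cd2bp2 encodes a splicing factor and Cd3eap a subunit of RNA polymerase I, and 18 of the genes were placed in a class of Cd symbols that are broadly expressed or belong to other cell types. Captured DNA gives no expression, so it could check neither silence in neural cells nor the cell makeup of the dissected layers. In such mixed tissue, a region methylated in more of the cells of a type and a tissue holding more cells of that type cannot be told apart.

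Each tissue's library was called against a control (the control lists) and directly against the other tissue's library (the V/SVZ over CP and CP over V/SVZ lists). A peak's tags are the sequence reads of that library within it. The 140 genes held 225 of 50667 autosomal peaks in the V/SVZ control list, 221 of 50968 in the CP control list, 112 of 21643 in V/SVZ over CP and 80 of 18249 in CP over V/SVZ. All 140 had at least 1 control peak, as did 12631 of the 12685 autosomal genes in the 4 lists. The choice of genes with a listed peak nearly fixes this count. Their control peaks held 5173 V/SVZ and 7218 CP tags, of 974963 and 1628027 in all listed autosomal control peaks. Of these peaks, 67, 61, 43 and 22, in the same order of lists, were also assigned to a gene outside the 140. That other gene is named below for only some of them.

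Few of the genes had a listed promoter peak, defined as a peak over the 5' end of a transcript or upstream within 1 kb. Peaks of low fold are missing from the control lists, so a promoter without a listed peak is not thereby unmethylated. In the V/SVZ control list 4 of 225 peaks (1.78%, Wilson 95% interval 0.693 to 4.48%) and in the CP control list 6 of 221 (2.71%, 1.25 to 5.80%) were promoter peaks, against 1.07% and 1.13% of all autosomal peaks, of which many have no gene within 10 kb. Per pair of a peak and a gene, the shares were 1.73% and 2.67% for the immune genes and 1.57% and 1.81% for all autosomal genes. In the direct lists they were 2 of 114 pairs for V/SVZ over CP (1.75%, 0.482 to 6.17%, against 0.971% for all genes) and 5 of 81 for CP over V/SVZ (6.17%, 2.67 to 13.6%, against 2.06%). These intervals, like all others here, cover counting error only. The promoters with a control or direct peak were those of the B cell receptor chains Cd79a and Cd79b, the T cell coreceptor chains Cd8a and Cd8b1, the receptors Il17re, Il22ra1, Tlr12 and Cd300a, and the chemokines Ccl24 and Ccl26.

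The sequences of 5 of these promoters are shown because the CpG sites in them, in capitals, are what the capture can bind. Each runs 5′ to 3′ along the gene's strand, from 250 bases before to 50 bases after a transcription start in the RefSeq annotation of GRCm38.p6. The positions are chr7:24897247-24897546 for Cd79a, chr6:71373177-71373476 for Cd8a, chr6:113458521-113458820 for Il17re and chr11:114889791-114890090 for Cd300a, all on the plus strand, and chr4:128618570-128618869 on the minus strand for Tlr12. The peaks are in mm9 coordinates, another build, so where a peak lies within these letters was not worked out.
Cd79a: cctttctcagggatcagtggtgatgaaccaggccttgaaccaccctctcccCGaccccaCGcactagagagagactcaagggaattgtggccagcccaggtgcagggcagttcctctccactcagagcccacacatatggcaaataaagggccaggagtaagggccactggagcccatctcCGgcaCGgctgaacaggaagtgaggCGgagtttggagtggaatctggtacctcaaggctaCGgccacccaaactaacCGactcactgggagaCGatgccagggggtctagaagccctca
Cd8a: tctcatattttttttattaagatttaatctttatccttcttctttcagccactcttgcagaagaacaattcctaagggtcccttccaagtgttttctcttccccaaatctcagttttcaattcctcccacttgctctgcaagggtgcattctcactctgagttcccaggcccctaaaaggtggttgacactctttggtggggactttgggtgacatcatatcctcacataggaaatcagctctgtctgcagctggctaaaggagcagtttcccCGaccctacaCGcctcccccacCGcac
Il17re: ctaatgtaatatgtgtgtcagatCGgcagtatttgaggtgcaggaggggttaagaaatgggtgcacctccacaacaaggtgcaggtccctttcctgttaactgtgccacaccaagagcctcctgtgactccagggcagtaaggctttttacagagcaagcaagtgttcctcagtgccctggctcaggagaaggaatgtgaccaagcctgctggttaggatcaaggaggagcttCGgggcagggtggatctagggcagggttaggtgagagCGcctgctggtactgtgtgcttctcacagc
Tlr12: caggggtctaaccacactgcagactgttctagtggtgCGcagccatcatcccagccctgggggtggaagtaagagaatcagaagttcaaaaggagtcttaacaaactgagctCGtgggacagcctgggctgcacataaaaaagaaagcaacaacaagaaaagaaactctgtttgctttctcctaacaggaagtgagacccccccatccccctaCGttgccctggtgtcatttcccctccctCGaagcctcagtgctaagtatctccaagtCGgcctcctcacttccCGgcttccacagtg
Cd300a: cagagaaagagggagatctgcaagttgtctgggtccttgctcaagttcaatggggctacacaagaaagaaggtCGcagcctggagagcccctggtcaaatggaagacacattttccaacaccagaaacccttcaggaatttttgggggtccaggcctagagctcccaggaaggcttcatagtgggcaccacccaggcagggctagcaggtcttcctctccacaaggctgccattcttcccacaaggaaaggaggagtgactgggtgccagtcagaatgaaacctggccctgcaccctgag

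The CpG count in these 300 bases was 8 for Cd79a, 6 for Tlr12, 3 for Cd8a, 3 for Il17re and 1 for Cd300a. Among 31396 RefSeq promoters of the same length on chromosomes 1 to 19 the median was 7, and 49%, 56.8%, 77%, 77% and 94.8% of them held at least as many. The matched promoter of Il22ra1, not shown, held 11, a number that 41.9% of them reached. Of these 6, the Cd79a and Il22ra1 promoters were thus above the median. Over the whole group no such comparison was made, since a promoter sequence was matched for 102 of the 140 genes (72.9%).

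The signalling chains of the B cell receptor had more promoter tags in different tissues, Cd79b in V/SVZ and Cd79a in CP. At Cd79b the peak over the 5' end (chr11:106175497-106175867) held 26 V/SVZ tags and 9 CP tags, so that CP over V/SVZ tags gave a ratio of 0.346 (exact 95% interval 0.143 to 0.762), and was in the V/SVZ over CP list. At Cd79a the V/SVZ peak (chr7:25682480-25682810) held 6 tags and the CP peak (chr7:25682172-25682804) 21, a ratio of 3.50 (1.37 to 10.6), and the CP peak was in the CP over V/SVZ list. A further V/SVZ over CP peak of 6 tags lay 600 bp upstream of Cd79a. For scale, the median ratio over all 32466 autosomal V/SVZ peaks that overlapped a CP peak was 1.82, so that only the Cd79b interval excluded it.

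Cd8a and Cd8b1, which encode the coreceptor of cytotoxic T cells, both had a CP over V/SVZ peak over the 5' end. The Cd8a peak (chr6:71323310-71323885) held 38 CP tags and had the highest significance, 352 (the authors' score, minus 10 times the log10 of the peak caller's p), of the 80 CP over V/SVZ peaks. The false discovery rate that the authors gave for it was 100%, as for all 80. Peaks of 32 and 12 CP tags inside Cd8a were in the same list, and a V/SVZ control peak of 6 tags overlapped the first 2 of these 3 peaks. None of them overlapped a listed CP control peak. At Cd8b1 the direct peak (chr6:71272332-71272864) held 9 tags, without a listed control peak in either tissue. Cd8a thus led the direct list at a site without a listed CP control peak.

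The other promoter peaks held 8 to 31 tags. At Il17re, a receptor for Il17c, the 5' end held 10 tags in V/SVZ (chr6:113408787-113409127) and 9 in CP (ratio 0.900, 0.324 to 2.46), and a CP peak of 8 tags 885 bp upstream was in the CP over V/SVZ list. At Cd300a, an inhibitory receptor of myeloid cells, a CP peak over the 5' end (chr11:114751344-114751890) held 31 tags and the V/SVZ peak within the gene 9 (ratio 3.44, 1.60 to 8.23), in neither direct list. Tlr12, an endosomal sensor in mice, had a CP over V/SVZ peak of 24 tags over its 5' end (chr4:128295047-128295999) with no listed control peak there. A CP peak of 15 tags lay 985 bp upstream of Il22ra1, a subunit of the Il22 receptor. A V/SVZ peak of 10 tags lay 494 bp upstream of Ccl26 (chr5:136039933-136040223), and a CP peak of 8 tags covered the 5' end of its neighbour Ccl24 (chr5:136048646-136049099).

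**Figure D1:**
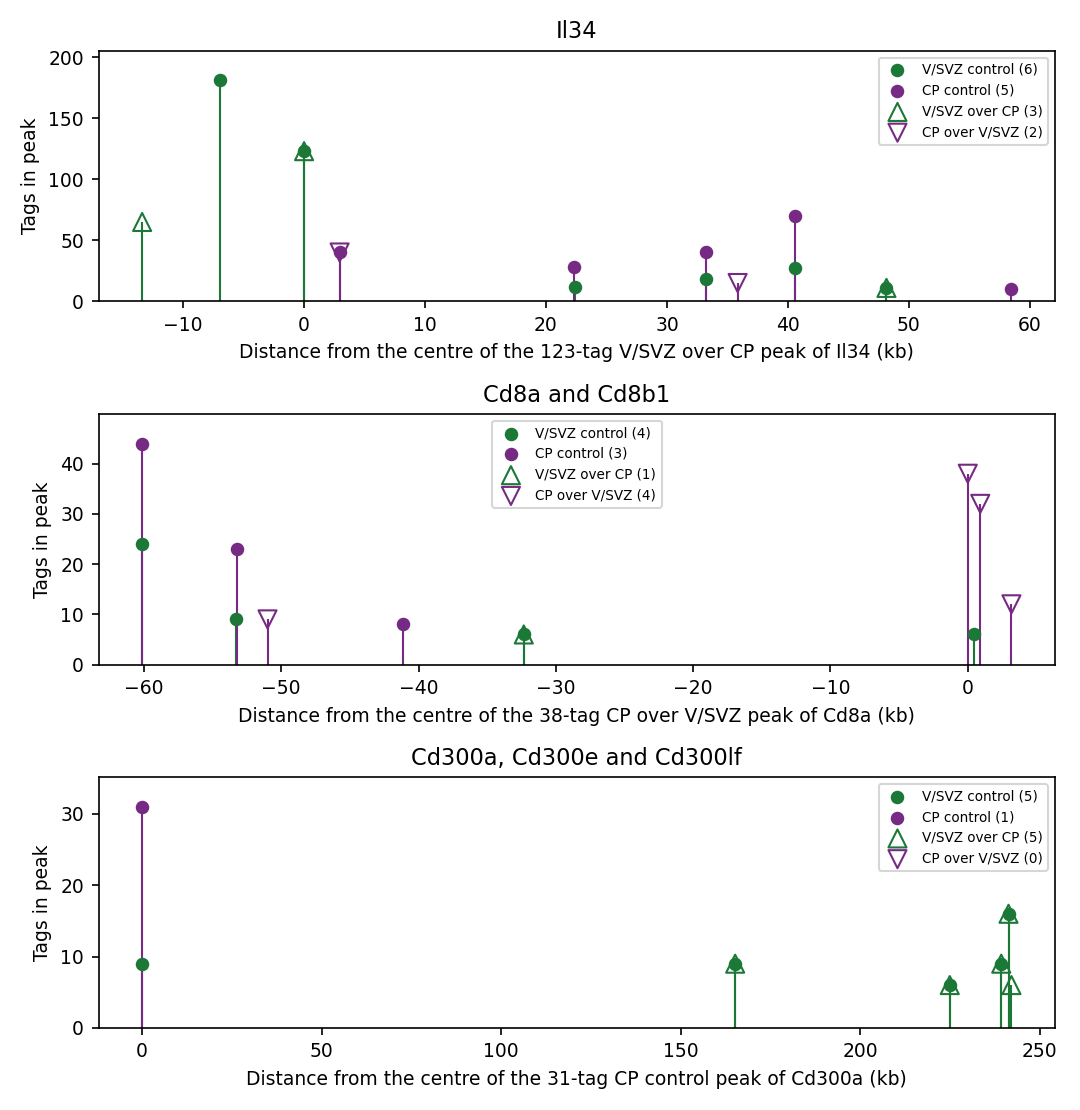
Tags per peak (vertical axis) by distance from a reference peak in kb (horizontal axis) at Il34, at Cd8a and Cd8b1, and at Cd300a, Cd300e and Cd300lf. Filled circles are control peaks and open triangles direct peaks, green for V/SVZ and purple for CP: 3 CP over V/SVZ peaks stand together at Cd8a, and the Cd300e and Cd300lf end of the third panel holds 5 V/SVZ over CP peaks and none in the other direction.

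Over all positions, the peaks of the immune genes were about as large, and about as often shared by the layers, as other autosomal peaks. The median peak held 13 tags in V/SVZ (range 6 to 344) and 17 in CP (7 to 354), against 11 and 17 over all autosomal peaks. Of the V/SVZ control peaks, 136 of 225 (60.4%, Wilson 53.9 to 66.6%) overlapped a listed CP control peak, against 64.1% of all autosomal ones, and of the CP control peaks 136 of 221 (61.5%, 55.0 to 67.7%) overlapped a V/SVZ one, against 63.4%. Both intervals hold the share over all peaks. Shared peaks were the larger ones: their median was 15 V/SVZ and 28.5 CP tags, and that of peaks listed in a single tissue was 10 in both. Peaks of low fold are missing from both control lists, and a partner below the lowest fold is not seen.

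At the 136 shared peaks the median CP to V/SVZ tag ratio was 1.8, with quartiles of 1.28 and 2.33, and over all shared autosomal peaks it was 1.82. Library totals were not used here, and depth cannot be told apart from methylation in that median. CP had more tags at 114 peaks, V/SVZ at 20, and 2 were equal. The exact interval of the ratio held the autosomal median at 105 peaks (77.2%, the same share as over all shared autosomal peaks). It lay above the median at 14 (10.3% against 12.6% over all) and below it at 17 (12.5% against 10.2%). All of the 14 except a peak of Tlr9 were in the CP over V/SVZ list, and all of the 17 except a peak of Cd247 in the V/SVZ over CP list.

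**Figure D2:**
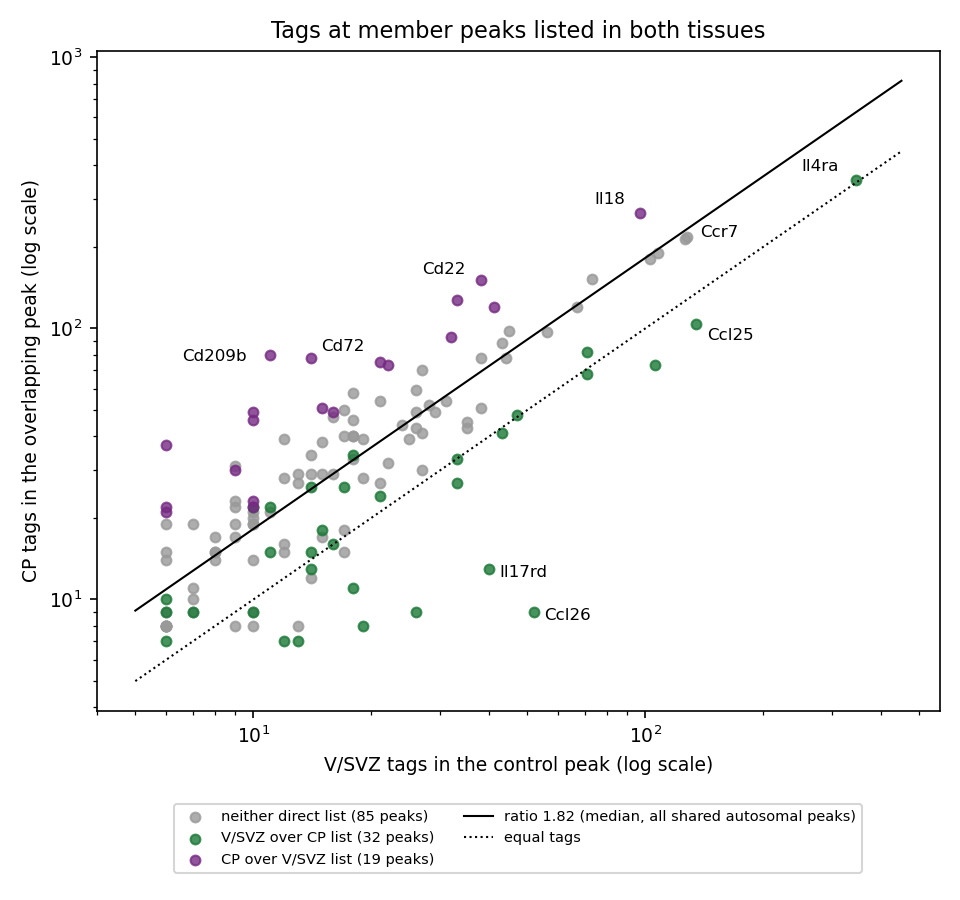
Tags at the 136 peaks listed in both tissues, V/SVZ on the horizontal and CP on the vertical axis, both on log scales; colours give the direct list, the solid line the median ratio of all shared autosomal peaks (1.82) and the dotted line equal tags. Most points lie along the solid line, Cd209b, Cd72 and Cd22 lie well above it, and Ccl26 and Il17rd lie below the dotted line.

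The share of immune genes in the V/SVZ over CP list was close to that of all genes, and in the CP over V/SVZ list it was lower. At least 1 V/SVZ over CP peak was assigned to 78 of the 140 (55.7%), where 56.3% of the 12631 autosomal genes with a control peak had one. For CP over V/SVZ the numbers were 66 of 140 (47.1%) and 56.2%. Both kinds of peak were found at 33 of the 140 genes, a smaller share than over all genes (4073 of 12631, 32.2%). Neither kind was found at 29 of the 140, close to the share over all genes (2492 of 12631, 19.7%). Counted by peaks, 90 of the 225 V/SVZ control peaks (40.0%, 33.8 to 46.5%) overlapped a V/SVZ over CP peak, where 36.3% of all autosomal ones did, and 62 of the 221 CP control peaks (28.1%, 22.5 to 34.3%) overlapped a CP over V/SVZ peak, where 27.6% of all did. By peaks, both shares over all autosomal peaks lay within the intervals.

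The share of genes with a V/SVZ over CP peak was higher with 3 or more control peaks than with 1 or 2. The immune genes had a median of 3 control peaks and all autosomal genes 4. Among genes with 1 control peak, 10 of 33 immune genes (30.3%) and 31.9% of all genes had a V/SVZ over CP peak. With 2 control peaks it was 12 of 34 (35.3%) against 30.1%. With 3 or 4 it was 26 of 37 (70.3%) against 50.3%, and with 5 to 8 it was 26 of 32 (81.2%) against 69.6%. For CP over V/SVZ the order was not steady: 18 of 34 (52.9%) against 34.4% with 2 control peaks, 17 of 37 (45.9%) against 53.1% with 3 or 4, and 14 of 32 (43.8%) against 66.9% with 5 to 8. With 1 control peak it was 13 of 33 (39.4%) against 35.9%. Only 4 of the 140 immune genes had 9 or more control peaks, against 1857 of the 12631 genes, of which 83.7% had a CP over V/SVZ peak.

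**Figure D3:**
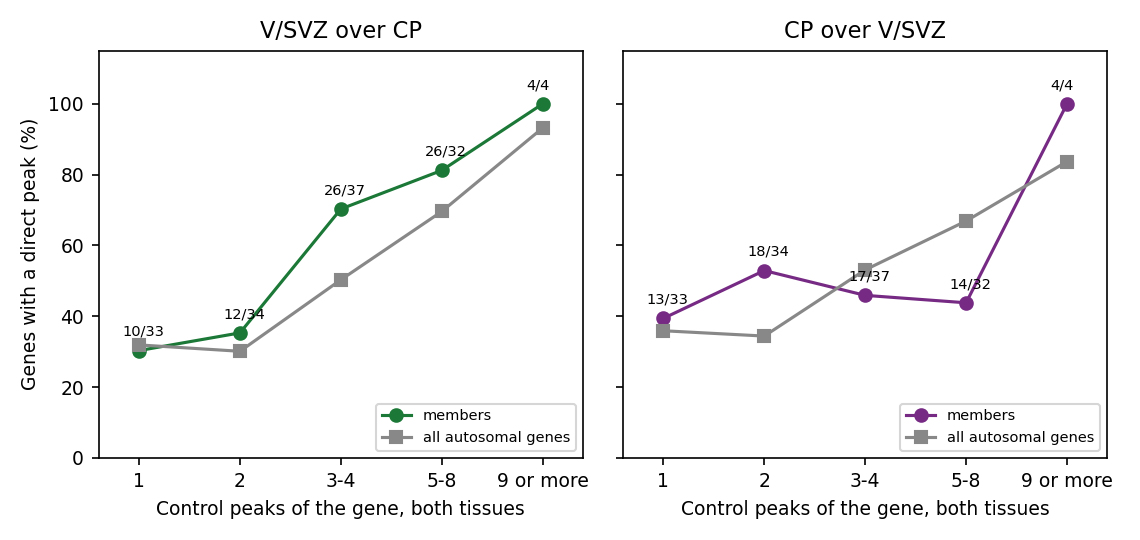
Percentage of genes with a V/SVZ over CP peak (left) and a CP over V/SVZ peak (right) by the number of control peaks of the gene in both tissues; coloured circles are the immune genes, with counts beside them, and grey squares all autosomal genes. The immune genes lie above the grey line from 2 control peaks up on the left, and below it at 3 to 8 control peaks on the right.

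The direct lists did not simply separate regions with more tags in V/SVZ from regions with more in CP. Of the 112 V/SVZ over CP peaks, 58 (51.8%) lay in a V/SVZ control peak alone, 32 (28.6%) in control peaks of both tissues and 22 (19.6%) in none. Over all peaks of this list the shares were 59.2%, 25.7% and 14.9%. At the shared peaks in this list the median ratio was 1.01 (0.173 to 2.20), and 16 of the 32 held more CP than V/SVZ tags. Over the whole list the median ratio was 0.905, and 2099 of 5553 shared peaks, a smaller share, held more CP tags. Of the 80 CP over V/SVZ peaks, 43 (53.8%) lay in a CP control peak alone, 19 (23.8%) in both and 15 (18.8%) in none, and 3 (3.75%) lay in a V/SVZ control peak only. The shares over all peaks of this list were 50.7%, 26.3%, 21.7% and 1.24%. Their median ratio at shared peaks was 3.50 (2.20 to 7.27). The false discovery rate that the authors gave did not exceed 5% for 1 of the 112 V/SVZ over CP peaks, in Il34, and 50% for 26 (23.2%). Over all 21643 peaks of that list these numbers were 16 and 5951 (27.5%). It was 100% for every one of the 80 CP over V/SVZ peaks, as for all 18249 of that list.

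Among the interleukins, 12 of 22 were in the V/SVZ over CP list and 11 in the CP over V/SVZ list, 6 of them in both. These shares, 54.5% and 50%, were near the 56.3% and 56.2% over all genes. Il34, a ligand of the Csf1 receptor, made by neurons and needed by microglia, had 11 control peaks and the V/SVZ over CP peak of highest significance in the group. This peak inside the gene (chr8:113269084-113269463) held 123 V/SVZ tags and overlapped no listed CP control peak. It was also assigned to Mtss1l, and the authors gave it a significance of 1400 and a false discovery rate of 0%. Also inside the gene, a nearby CP peak of 40 tags was in the CP over V/SVZ list and in no V/SVZ control list. At the 3 shared Il34 peaks CP had more tags, 28 against 12, 40 against 18 and 70 against 27, with ratios of 2.33, 2.22 and 2.59. A V/SVZ control peak of 181 tags downstream of the gene (chr8:113261427-113263246) had no listed CP partner and yet was in neither direct list, so that the absence of a listed partner alone does not show a difference.

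The interleukin peak with the most tags lay upstream of Il18, an inflammatory cytokine of the Il1 family. It held 97 V/SVZ tags and 267 CP tags (chr9:50368861-50369556 in V/SVZ; ratio 2.75, 2.17 to 3.51), was in the CP over V/SVZ list and was also assigned to Bco2 and Tex12. At the 3' end of Il17c, an epithelial cytokine, a peak (chr8:124947137-124947608) held 106 V/SVZ tags and 73 CP tags (0.689, 0.504 to 0.937), and 2 more V/SVZ over CP peaks of 26 and 10 tags followed downstream. Inside Il17c a CP over V/SVZ peak held 28 tags. A peak downstream of Il23a, a subunit of Il23, held 33 and 27 tags (0.818, 0.473 to 1.40) and was also assigned to Stat2. Il17c thus had direct peaks in both directions within its own flanks, and Il9 had them too, with 6 V/SVZ tags and 13 CP tags at separate sites downstream. Il5, Il6, Il12b, Il19 and Il17a each had a single control peak, of 6 to 12 tags.

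Of the 25 interleukin receptor and binding protein genes, 19 (76.0%) had peaks in the V/SVZ over CP list and 14 (56.0%) in the CP over V/SVZ list, 10 of them in both, where the shares over all genes were 56.3% and 56.2%. The class held 59 V/SVZ and 56 CP control peaks. The largest control peak of the group lay downstream of Il4ra, a chain of the receptors for Il4 and Il13. It held 344 V/SVZ tags (chr7:132729611-132730429) and 354 CP tags, a ratio of 1.03 (0.885 to 1.20), and was in the V/SVZ over CP list. Nearly equal tags at that site stand against a median ratio of 1.82. A second Il4ra peak 8169 bp upstream held 10 and 23 tags and was in the CP over V/SVZ list. Il31ra, the Il31 receptor, had a peak inside the gene with 71 V/SVZ tags and 68 CP tags (0.958, 0.677 to 1.35), called as V/SVZ over CP, and 1 downstream with 67 and 120 (1.79, 1.32 to 2.45) in neither. An 11-tag V/SVZ peak inside Il31ra and a 14-tag peak downstream of Il12rb1, which encodes a shared chain of the Il12 and Il23 receptors, had no listed CP partner and were in the V/SVZ over CP list.

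Il17rd, known as an inhibitor of FGF signalling in embryos, had the second lowest ratio of the group. Its peak inside the gene (chr14:27867793-27868124) held 40 V/SVZ tags and 13 CP tags (0.325, 0.159 to 0.620). Elsewhere in Il17rd, V/SVZ had a 6-tag peak in the V/SVZ over CP list and CP had peaks of 9 and 19 tags in neither. Il6st, the shared signalling chain of the Il6 family, had the most control peaks, 12. Its 5 shared peaks held 29 and 49, 8 and 17, 14 and 12, 10 and 20, and 28 and 52 tags in V/SVZ and CP, and only the third of these had more in V/SVZ. A 15-tag V/SVZ peak inside Il6st was in the V/SVZ over CP list and a 33-tag CP peak upstream in the other.

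The receptor peaks with higher CP tags included Il23r, Il10ra, Il1rl1 and Il17rc. Upstream of Il23r the counts were 10 for V/SVZ and 49 for CP (ratio 4.90, 2.45 to 10.8). Inside Il10ra they were 22 and 73 (3.32, 2.04 to 5.61), and inside Il1rl1, the Il33 receptor, 15 and 51 (3.40, 1.88 to 6.51). Downstream of Il17rc, a chain of the Il17 receptor, they were 32 and 93 (2.91, 1.93 to 4.49). All of these peaks were in the CP over V/SVZ list. In Il3ra, the alpha chain of the Il3 receptor, CP over V/SVZ peaks of 66, 169 and 414 tags stood side by side (the largest at chr14:15182330-15183858), and the V/SVZ control peak at the largest held 125 tags. No listed CP control peak covered that site, so CP was counted there only in the direct list. Il22ra1, with 9 control peaks, had 4 V/SVZ over CP and 2 CP over V/SVZ peaks of 8 to 14 tags, and Il6ra, with 8, had 2 and 1.

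**Figure D4:**
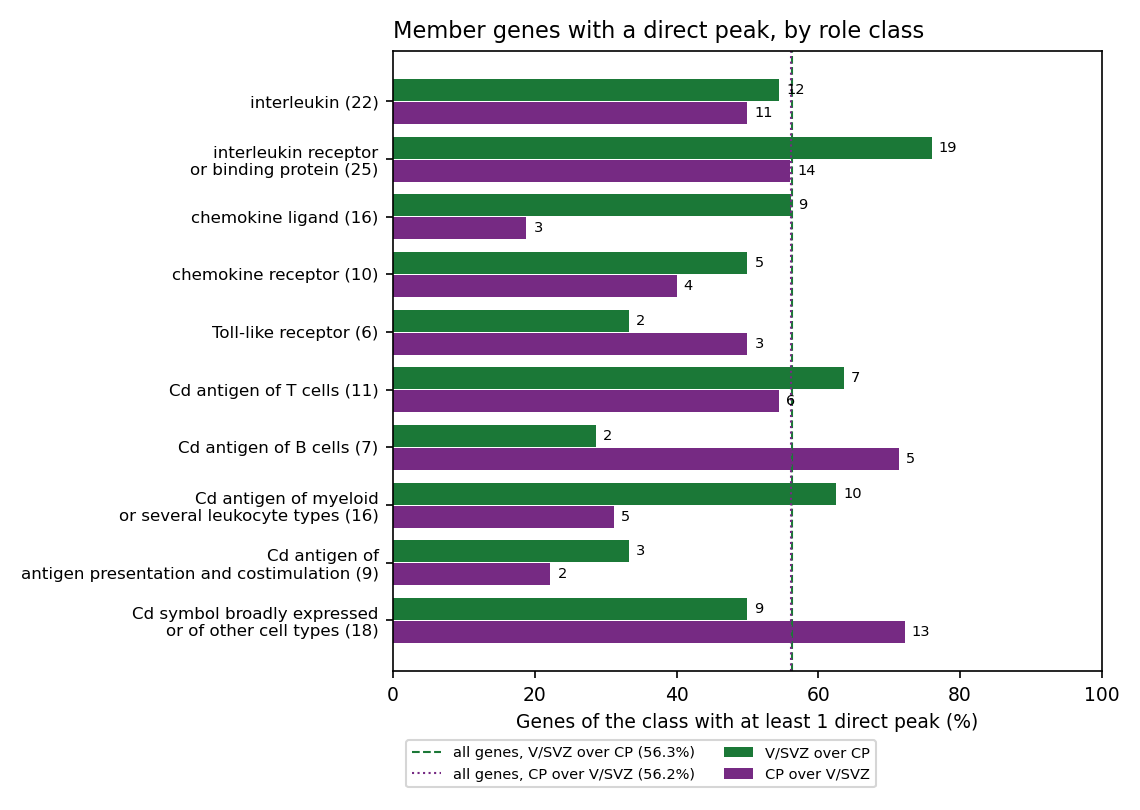
Percentage of the genes of each role class with at least 1 direct peak, V/SVZ over CP in green and CP over V/SVZ in purple; the number in parentheses is the genes of the class, the number at each bar the genes with such a peak, and the vertical lines the shares over all autosomal genes. Bars range from 3 of 16 chemokine ligands for CP over V/SVZ to 19 of 25 interleukin receptors for V/SVZ over CP.

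Chemokine ligands had V/SVZ over CP peaks at 9 of 16 genes and CP over V/SVZ peaks at 3, with no gene in both lists. The V/SVZ share of 56.2% was close to that of all genes (56.3%), and the CP share was 18.8% against 56.2%. Downstream of Ccl26, a chemokine of the eotaxin group, the peak of lowest ratio in the group (chr5:136033943-136034540) held 52 V/SVZ tags and 9 CP tags (0.173, 0.075 to 0.354). Upstream of Ccl25, which draws T cell precursors to the thymus, V/SVZ had 135 tags and CP 104 (chr8:4345828-4346254; 0.770, 0.591 to 1.00). Upstream of Ccl22, a ligand of Ccr4, a V/SVZ peak of 9 tags had no listed CP partner. The 3 genes in the CP over V/SVZ list were Cxcl14 (9 and 30 tags inside the gene, ratio 3.33, 1.54 to 7.98), Cxcl17 (58 CP tags upstream) and Cxcl5 (7 CP tags upstream). At Cxcl14 the interval holds the autosomal median, and at Ccl26 and Ccl25 it lies below.

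Cxcl12, which guides migrating neurons through Cxcr4, had peaks of both kinds close together. A V/SVZ peak of 14 tags inside or downstream of its transcripts (chr6:117126154-117126425) had no listed CP partner and was in the V/SVZ over CP list. Further on, V/SVZ had 15 tags and CP 38 (chr6:117128272-117128719; 2.53, 1.36 to 4.96), in neither direct list. The interval of the second region holds the autosomal median.

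Of the 10 chemokine receptors, 5 were in the V/SVZ over CP list and 4 in the CP over V/SVZ list, 3 of them in both. That is 50% and 40%, where 56.3% and 56.2% of all genes were in these lists. Inside Ccr7, which leads cells to lymph nodes, the peak with the most tags held 128 in V/SVZ and 217 in CP (1.70, 1.36 to 2.13), close to the autosomal median. Cxcr5, the B cell follicle receptor for Cxcl13, had 1 peak inside the gene with 41 and 120 tags (2.93, 2.04 to 4.28) in the CP over V/SVZ list. Downstream it had a peak with 71 and 82 tags (1.15, 0.830 to 1.61), called as V/SVZ over CP, next to direct V/SVZ peaks of 55 and 23 tags outside the control lists. Downstream of Ccr6, the receptor for Ccl20, the counts were 21 and 75 (3.57, 2.18 to 6.10), and a direct CP peak of 25 tags stood beside it. Ccr10, a receptor of skin-homing T cells, had direct peaks of 29 and 8 tags for V/SVZ and of 35 tags for CP, all outside the control lists and more than 3 kb from the gene. Cxcr7, a scavenger of Cxcl12, had 13 and 29 tags inside the gene (2.23, 1.12 to 4.67) and no direct peak.

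Toll-like receptors had shared peaks with more CP tags throughout, 5 of 5, at 4 genes. Tlr9, which senses DNA with unmethylated CpG sites, had 18 V/SVZ tags and 58 CP tags 7461 bp upstream (3.22, 1.87 to 5.81), also assigned to Twf2. It had 38 and 78 tags 9480 bp downstream (2.05, 1.38 to 3.11), also assigned to Alas1. Tlr2, a receptor for bacterial lipoproteins, had 21 and 54 inside the gene (2.57, 1.53 to 4.48). Neither gene had a CP over V/SVZ peak, which Tlr5, Tlr6 and Tlr12 had. Tlr5, the flagellin receptor, also had a V/SVZ over CP peak of 8 tags, beside its CP over V/SVZ peak of 22. Over all shared autosomal peaks 12.7% had more V/SVZ tags, so 5 peaks without any say little.

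T cell antigens had V/SVZ over CP peaks at 7 of 11 genes and CP over V/SVZ peaks at 6, 3 of them in both. Both shares, 63.6% and 54.5%, were near those of all genes (56.3% and 56.2%). Downstream of Cd4, the coreceptor of helper T cells, the largest peak held 73 V/SVZ tags and 152 CP tags (2.08, 1.57 to 2.79), in neither list, and it was also assigned to other genes. Upstream of Cd4 the counts were 10 and 46 (4.60, 2.29 to 10.2), in the CP over V/SVZ list. A direct V/SVZ peak of 11 tags lay inside the gene, outside the control lists. Cd6, a T cell adhesion receptor, had 33 tags in both tissues at 1 peak, in the V/SVZ over CP list, and 35 and 45 at the next (1.29, 0.808 to 2.06). Cd96 had 16 and 49 (3.06, 1.71 to 5.77), in the CP over V/SVZ list. Cd247, the zeta chain of the T cell receptor, had 8 control peaks of 6 to 19 tags, with ratios from 0.615 to 3.17 at the 3 shared ones.

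The 7 B cell antigens had V/SVZ over CP peaks at 2 genes (28.6%), Cd79a and Cd79b, and CP over V/SVZ peaks at 5 (71.4%). Over all genes the shares were 56.3% and 56.2%. The median ratio at the 5 shared peaks of this class was 3.50, against 1.8 over the 136, and the ratios ran from 0.346 to 5.57. The peaks lay at Cd22, Cd72, Cd79a and Cd79b. The median was that of the Cd79a peak of 6 and 21 tags, whose interval (1.37 to 10.6) holds the autosomal median. A median of 5 peaks says little. Downstream of Cd22, an inhibitory lectin that binds sialic acid, the peak held 38 V/SVZ tags and 151 CP tags (chr7:31645615-31646764 in V/SVZ; 3.97, 2.77 to 5.83). A second peak further downstream held 45 and 98 (2.18, 1.52 to 3.17). Both were also assigned to the fatty acid receptor genes Ffar1 and Ffar3. Downstream of Cd72, a coreceptor of B cells, the counts were 14 and 78 (chr4:43458262-43458791 in V/SVZ; 5.57, 3.13 to 10.7). Cd37, a tetraspanin, had V/SVZ control peaks of 41 and 53 tags downstream without a listed CP partner, and neither was in the V/SVZ over CP list; its direct peak was a CP over V/SVZ peak of 22 tags. All 3 were also assigned to Tead2.

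Among the 16 antigens of myeloid or several leukocyte types, 10 were in the V/SVZ over CP list and 5 in the CP over V/SVZ list, 3 of them in both. The class shares were 62.5% and 31.2%, against 56.3% and 56.2% over all genes. The highest ratio of the group was downstream of Cd209b, a lectin of marginal zone macrophages, with 11 V/SVZ tags and 80 CP tags (chr8:3913260-3913652 in CP; 7.27, 3.85 to 15.2). Cd163l1, a scavenger receptor gene, had 33 and 127 tags inside the gene (3.85, 2.61 to 5.83) and 6 and 37 downstream (6.17, 2.58 to 17.9). The peaks of Cd209b and Cd163l1, like those of Cd22 (the larger) and Cd72, were in the CP over V/SVZ list. Cd163l1 also had a V/SVZ over CP peak of 17 tags. The related receptor genes Cd300e and Cd300lf had 1 and 4 V/SVZ over CP peaks, of 6 to 16 tags, and no CP control peak. Cd200r1 had a single V/SVZ peak of 6 tags and Cd209e a single CP peak of 14, each in its direct list.

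Genes of antigen presentation and costimulation had V/SVZ over CP peaks at 3 of 9 and CP over V/SVZ peaks at 2, with no gene in both and 4 in neither. Beside their shares of 33.3% and 22.2% stood 56.3% and 56.2% over all genes. Cd276, a costimulatory molecule found on many cell types, had 43 V/SVZ tags and 41 CP tags (0.953, 0.606 to 1.5) at a peak in the V/SVZ over CP list and 38 and 51 (1.34, 0.865 to 2.10) at the next. Cd74, the invariant chain of MHC class II, had V/SVZ peaks of 27 and 16 tags in the V/SVZ over CP list and no CP control peak. Cd80, a ligand of Cd28, had V/SVZ over CP peaks of 8 and 6 tags and a shared peak of 14 and 34 tags (2.43, 1.27 to 4.90). Cd40 and Cd1d2 had CP over V/SVZ peaks of 8 and 7 tags. These counts are near the smallest that either list holds, 6 in V/SVZ and 7 in CP.

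The class of broadly expressed Cd symbols had the highest CP over V/SVZ share, 13 of 18 genes (72.2%, against 56.2% of all genes). It had 9 genes in the V/SVZ over CP list (50%, against 56.3%) and 6 in both. Its tag-rich peaks nevertheless lay near the autosomal median. Cd109, a membrane-anchored protein of the complement-related family, had 126 and 213 tags (1.69, 1.35 to 2.12). Cd164l2 had 108 and 190 (1.76, 1.38 to 2.25) at a V/SVZ peak 9515 bp upstream, also assigned to Gpr3. The tetraspanin gene Cd151 had 103 and 180 (1.75, 1.36 to 2.25) at a peak also assigned to Polr2l and Tspan4. None of these 3 peaks was in a direct list. The 15 CP over V/SVZ peaks of the class held 7 to 24 tags. Among them were peaks of 24 tags inside Cd63, 21 and 8 and 8 at Cd82 (both tetraspanins), 10 upstream of Cd248, a pericyte antigen, and 10 downstream of Cd59a, a complement inhibitor. None of these overlapped a V/SVZ control peak. Cd93, a receptor of endothelial and myeloid cells, had a peak of 6 V/SVZ tags and 22 CP tags (3.67, 1.44 to 11.1) in the same list.

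Neural cells are known to express Cd47, Cd9 and Cd44. Cd47, a signal that restrains phagocytes, had 19 V/SVZ tags and 8 CP tags inside the gene (0.421, 0.159 to 1.01), called as V/SVZ over CP, and a CP over V/SVZ peak of 7 tags. Cd9, a tetraspanin, had 27 and 41 (1.52, 0.912 to 2.57) at a shared peak, 13 tags at a V/SVZ over CP peak and 8 at a CP over V/SVZ peak. Cd44, the hyaluronan receptor, had CP peaks of 8 tags at 2 sites, 1 of them in the CP over V/SVZ list. With Il34, Il6st, Il17rd and Cxcl12, each of these except Cd44 had a V/SVZ over CP peak, and each except Il17rd and Cxcl12 a CP over V/SVZ peak. Over all genes with a control peak, 56.3% and 56.2% had such peaks. Among all genes with 9 or more control peaks, as Il34 and Il6st have, 93.2% and 83.7% did. So few genes, chosen for their known expression, show no trait of neural genes.

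By position, a smaller share of methylated peaks lay inside the immune genes, and a larger share downstream of them, than over all genes. Of 231 pairs of a V/SVZ control peak and a gene, 125 (54.1%, Wilson 47.7 to 60.4%) were inside the gene, against 66.8% of all autosomal pairs, and 64 (27.7%, 22.3 to 33.8%) were downstream, against 17.5%. Of 225 CP pairs, 108 (48.0%, 41.6 to 54.5%) were inside, against 65.4%, and 63 (28.0%, 22.5 to 34.2%) downstream, against 17.3%. The upstream shares were 15.2% against 14.1% in V/SVZ and 20% against 15.4% in CP. Each of the inside and downstream intervals excludes the share over all pairs, in both tissues. A short gene offers less length inside than in its 10 kb flanks, and the part of gene length in these shares was not tested.

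**Figure D5:**
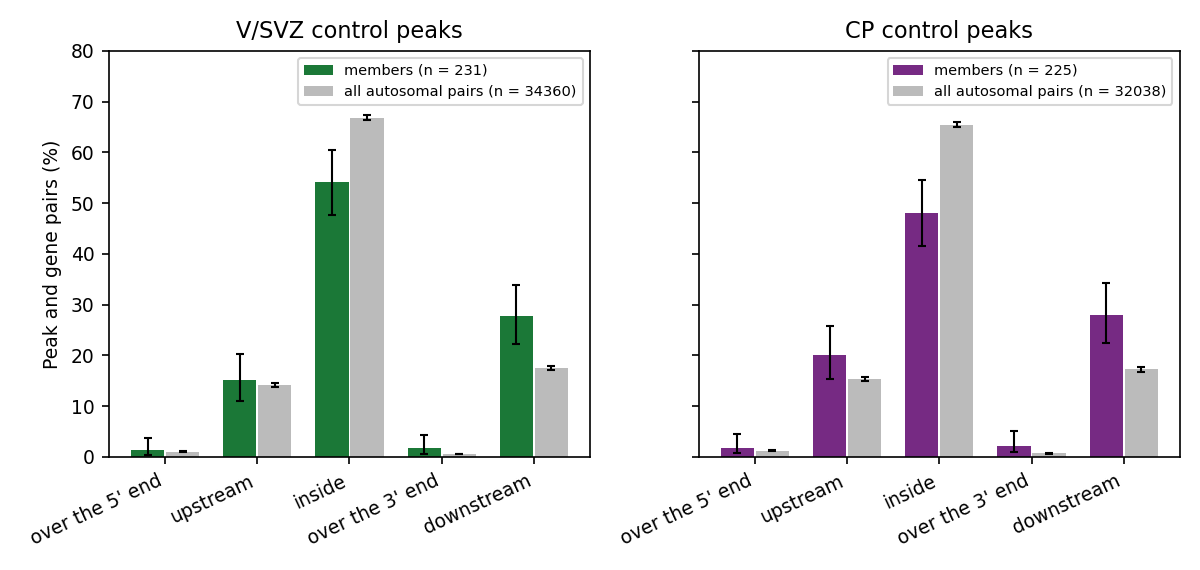
Position of control peaks relative to their gene, as percentages of the pairs of a peak and a gene (vertical axis) for V/SVZ (left) and CP (right); coloured bars are the immune genes, grey bars all autosomal pairs, and error bars Wilson 95% intervals. The coloured bar is lower than the grey one inside genes and higher downstream in both tissues.

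Among chromosomes with direct peaks of the immune genes in both directions, chromosome 11 had the most uneven balance. Its 13 immune genes, with the Cd300 receptors, Ccr7, Ccr10, Cxcl16 and Cd79b among them, had 16 V/SVZ over CP peaks and 2 CP over V/SVZ peaks, a ratio of 8, whereas all peaks of the chromosome gave 1519 and 1116, a ratio of 1.36. Over all chromosomes the immune genes had 112 and 80, a ratio of 1.40, against 1.19 over all autosomal peaks. On chromosome 2 the balance was the other way, with 4 and 9 peaks at 10 genes (0.444, against 1.21 over all). Chromosome 7, with the most genes, 16, had 16 peaks in each direction. The chromosomes were singled out after their values were seen, and peaks of neighbouring genes are not independent.

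Genes that act downstream of these receptors were counted in the same way. Of 20 Toll-like and interleukin signalling genes, 16 had a control peak, and 8 of these were in the V/SVZ over CP list and 14 (87.5%) in the CP over V/SVZ list, which held 56.2% of all genes. Among the NF-kappaB members of this list, Nfkb2, Relb and Rela held tag-rich peaks. The largest control peak of Nfkb2 had 85 V/SVZ tags and 254 CP tags, that of Relb 46 and 167, and that of Rela 129 and 38. The largest peaks of the tissues need not be the same region. None of these genes had a V/SVZ over CP peak. All had CP over V/SVZ peaks, of up to 254 CP tags at Nfkb2, 167 at Relb and 295 at Rela. Nfkb1 had smaller ones, of up to 17 V/SVZ tags and 33 CP tags, with 6 V/SVZ over CP peaks and 2 CP over V/SVZ peaks. Irak3, a brake on Toll-like receptor signalling, also had 6 V/SVZ over CP peaks, of up to 32 tags, and 1 CP over V/SVZ peak. Of the 18 JAK and STAT pathway genes 17 had a control peak. Of these, 11 (64.7%) were in the V/SVZ over CP list and 8 (47.1%) in the CP over V/SVZ list. For the 28 genes of the TNF family the numbers were 17, 10 (58.8%) and 9 (52.9%). The V/SVZ over CP list held 56.3% of all genes.

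Markers of the cells that express many immune genes carried peaks as well. Of the microglia and macrophage markers reported here, 6 had a control peak, of which 3 were in the V/SVZ over CP list and 2 in the CP over V/SVZ list. The largest control peaks of Csf1r, the receptor for Il34, held 24 V/SVZ tags and 32 CP tags, those of Tmem119 73 and 19, and those of Itgam 13 and 64. Here too, the largest peaks of the tissues need not be the same region. In the direct lists Csf1r had peaks of up to 24 V/SVZ tags and 32 CP tags. Tmem119 had only V/SVZ over CP peaks, of up to 16 tags, and Itgam only CP over V/SVZ peaks, of up to 64. All 5 endothelial markers had control peaks, with 3 genes in each direct list. Beside these counts, the V/SVZ over CP list held 56.3% of all genes and the CP over V/SVZ list 56.2%. Marker counts this small say little. The largest control peaks of Cdh5, the vascular cadherin, held 86 V/SVZ tags and 240 CP tags. Those of Pecam1 held 31 and 68, of Tek 19 and 41, of Kdr 13 and 17, and of Cldn5 10 and 12. Cdh5 and Pecam1 had direct peaks in both directions. Kdr had only V/SVZ over CP peaks, Tek only a CP over V/SVZ peak and Cldn5 neither. The part of the tissues' cell makeup in any of the differences above was not tested.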

How the data were processed

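DNA enriched for methylation from the V/SVZ and the CP was sequenced, 1 library each. Per the submitters' processing notes, CASAVA 1.8 and Bowtie (no version given) were used, with the genome build mm9. The deposited tables have the columns of the MACS peak caller, per the file headers, whose version and settings, like the nature of the control, are not stated in the labels. Tags are a count of reads, not normalized, in the deposited tables. Significance is the authors' score (minus 10 times the log10 of p), fold the authors' ratio over the local expectation, and the false discovery rate a percent given by the authors, 0 for control peaks. The control tables end at 65535 lines, sorted by fold, so that 6299 V/SVZ and 15993 CP numbered peaks, below folds of 11.5 and 14.7, are not in the lists used here. The direct tables hold every numbered peak. No library totals were used.

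Peaks were compared by overlap of at least 1 bp. A ratio divides the CP tags of the overlapping CP control peaks by the V/SVZ tags, without scaling for depth or length. Its interval is exact binomial and that of a share Wilson, both 95% and for counting error only, and reads without molecular identifiers are not independent molecules. With 1 library per tissue no test was made. Shares over all autosomal peaks or genes stand beside those of the immune genes. Genes and lists were chosen with earlier results of these data known. Genes named in full had a promoter peak, a direct peak among the 8 of highest significance in each list inside or outside control peaks, a shared peak with the most tags or an extreme ratio among those with at least 50 tags, the most control peaks, the largest control peaks of a class, or known neural expression. Il1rap, Cxcr4, Cd24a and Cd200, also on that rule, are not analysed here. Other genes were named after their values were seen. All 140 gene IDs were matched to a RefSeq gene table, in which 5 have newer symbols, and RefSeq promoters are of GRCm38.p6. Python 3.11.15, pandas 2.3.3 and scipy 1.17.1 were used, and the counting was tested on simulated data.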

Additional observations from a re-analysis of the deposited data

How the results depend on the processing

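Of 21 alternative values, 13 lay within 1.5 times the reported count, or within the counting interval of the reported share, or gave a median ratio of 1.8 or 1.85: an overlap of at least 50% of the shorter peak, the genes without Cd symbols, direct peaks that lay in the tissue's own control peaks (71 genes for V/SVZ over CP and 57 for CP over V/SVZ) or within 5 kb of the gene (63 and 47), and promoter peaks over the 5' end alone. Direct peaks in own control peaks gave 50.7% of the immune genes for V/SVZ over CP, against 50.9% of all genes. For CP over V/SVZ it was 40.7% against 45.9%. Within 5 kb the shares were 45% against 48% for V/SVZ over CP and 33.6% against 46.8% for CP over V/SVZ. In the upper tercile by fold, the shared part was 74.2% of V/SVZ and 69.8% of CP control peaks, against 60.4% and 61.5%. With tags per kb, the median ratio was 1.58 instead of 1.8. With direct peaks at or above the median significance, 38 genes had a V/SVZ over CP peak (27.1%, against 34.6% of all genes) and 34 a CP over V/SVZ peak (24.3%, against 35.2%), instead of 78 and 66. With peaks assigned to the immune genes only, 51 were in the V/SVZ over CP list, and 49, still within 1.5 times, in the other list. With promoters reaching 5 kb upstream, their shares were 8.44% in V/SVZ and 11.8% in CP. Where an alternative uses fewer or more peaks by construction, the count follows from it; for the ratio the cause was not tested. At a median of 13 and 17 tags per peak, most ratios carry wide intervals. No paired analysis was possible because each tissue had 1 library.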
